A study of Mus musculus with 4 samples.

Results

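The genes described here are 8 transcription factor genes that set and keep the identity of Sertoli cells and of the other somatic cells of the gonad, namely *Sox9*, *Sox8*, *Wt1*, *Gata4*, *Nr5a1*, *Tcf21*, *Lhx9* and *Emx2*. They were chosen by gene name from the 55820 loci of the deposited table, and each name matched 1 locus. Measured values did not enter the rule, but the choice was made with earlier results of these data known. Their RNA was measured in whole testes of male C57BL/6J mice at postnatal day 10 (P10), in 2 control libraries and 2 libraries from Mps1sKO mice, in which *Mps1* (gene symbol *Ttk*) was knocked out with *Stra8*-cre. *Stra8*-cre is active in germ cells from early spermatogonia on, so Sertoli cells and interstitial cells were not the target of the deletion. The labels give the genotype of the control mice only as control, and the sources used here do not say how many mice went into a library, so p-values measure the spread between these libraries.

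Sertoli cells are the somatic cells of the seminiferous tubule, which enclose and nourish the germ cells. In the fetal gonad, WT1, GATA4, NR5A1 (also called SF-1), LHX9 and EMX2 act in the genital ridge before the sexes differ. SRY then raises SOX9, which with its close relative SOX8 holds the Sertoli fate and represses the ovarian one. After birth, SOX9, SOX8, WT1 and GATA4 are kept on in Sertoli cells. GATA4 and NR5A1 are also made in Leydig cells, the steroid-producing cells between the tubules. TCF21 and LHX9 are better known from interstitial progenitor cells and WT1, LHX9 and EMX2 also from the epithelium that covers the gonad.

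The total counts of the 4 libraries lay between 23311689 and 28607746, and a floor of 3 counts corresponded to 0.105 to 0.129 CPM (counts scaled to a common library size), for counting error only. *Ttk* RNA differed in the label's direction, with 750 and 940 counts in control and 302 and 326 in Mps1sKO testes (log2 fold change −1.26 with a standard error of 0.129, and adjusted p = 0.0461 from edgeR). This call was lost with a stricter filter on low counts (adjusted p = 0.0573), with the replicate number as a block (0.224) and in limma-voom (0.0745). These counts cover the whole gene, so they do not show the loss of the deleted exons. Germ cell markers were also lower in Mps1sKO testes, as given below, and their part in the *Ttk* value was not tested. Libraries of the same genotype differed by more than sampling noise, as the chi-square of their counts over genes, divided by its degrees of freedom, was 8.49 for control and 11.6 for Mps1sKO. All 8 factors passed the filter on low counts that kept 20561 loci for testing. The testis label was borne out by its defining markers, with the Sertoli gene *Fshr* at 31.7 CPM and the germ cell gene *Ddx4* at 208 CPM in control testes.

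The factors lie on 7 chromosomes of the mouse genome, in coordinates of GRCm38 (mm10). *Sox9* (ENSMUSG00000000567) spans 112782224 to 112787760 on chromosome 11 and *Sox8* (ENSMUSG00000024176) 25565892 to 25570686 on chromosome 17. *Wt1* (ENSMUSG00000016458) spans 105126529 to 105173616 and *Nr5a1* (ENSMUSG00000026751) 38692656 to 38714542, both on chromosome 2. *Gata4* (ENSMUSG00000021944) spans 63198922 to 63271692 on chromosome 14, and *Tcf21* (ENSMUSG00000045680) 22817281 to 22820174 on chromosome 10. *Lhx9* (ENSMUSG00000019230) spans 138825186 to 138848577 on chromosome 1 and *Emx2* (ENSMUSG00000043969) 59458372 to 59465357 on chromosome 19. Counts were taken over exons, whose joined length ran from 2349 bases for *Tcf21* to 9494 bases for *Lhx9*.

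*Gata4* had the largest positive difference between the genotypes among the 8 factors, so the letters that GATA factors read are shown here, in promoters of other factors and of Sertoli genes. RefSeq promoters on GRCm38.p6 (250 bases before to 50 after a gene's RefSeq start) matched 4 of the 8 factors, *Sox8*, *Tcf21*, *Lhx9* and *Emx2*, and 8 of 10 Sertoli genes known to lie downstream of the factors. The letters GATAA, on either strand, were found in 2 of the 4 factor promoters and in 3 of the 8 Sertoli promoters, while 25.4% of all 32851 promoters held them. Each line gives the matched letters in capitals with up to 20 bases on each side, on the strand of the gene.
Tcf21, chr10:22820149-22820193, minus strand: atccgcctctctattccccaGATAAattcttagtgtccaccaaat
Lhx9, chr1:138842479-138842523, minus strand: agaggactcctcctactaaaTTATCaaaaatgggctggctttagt
Fshr, chr17:89200848-89200892, minus strand: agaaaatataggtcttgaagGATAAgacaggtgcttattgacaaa
Fshr, chr17:89200678-89200722, minus strand: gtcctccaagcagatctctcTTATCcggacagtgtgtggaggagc
Dhh, chr15:98898737-98898781, minus strand: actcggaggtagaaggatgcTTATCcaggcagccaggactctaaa
Cst9, chr2:148835071-148835115, plus strand: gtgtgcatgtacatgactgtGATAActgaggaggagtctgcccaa

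The matches began 30 bases before the RefSeq start of *Tcf21* and 59 bases before that of *Lhx9*. For *Tcf21*, *Lhx9* and *Emx2*, the RefSeq start lies inside the gene span given above. The *Tcf21* and *Lhx9* matches thus lie within the spans of these genes and not upstream of them. *Fshr* had matches at 197 and 27 bases before its start, *Dhh* had one at 221 and *Cst9* one at 56. They are matches of letters and not measured binding sites. The letters AACAAT for SOX factors (10.7% of all promoters), AAGGTCA for NR5A1 (4.72%) and GCGTGGG for WT1 (5.04%), searched on both strands, were in none of these 12 promoters. The homeodomain letters TAATTA (5.29% of all promoters) were found in that of *Emx2*, 36 bases after its start, and in that of *Ptgds*. The E-box CANCTG, of the kind that TCF21 reads, was in none of the 4 factor promoters and in 6 of the 8 Sertoli promoters, against 51.4% of all.

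To place the factors by level, the deposited values scaled for gene length and library size (FPKM) were compared, since only these take gene length into account. *Gata4* was highest, with 53.5 and 45.3 FPKM in control and 64.0 and 65.1 FPKM in Mps1sKO testes. It ranked 13th of the 1588 loci for which the file names a transcription factor family, and 1st of 14 in the GATA zinc finger family. *Nr5a1* followed with a mean over the 4 libraries of 48.8 FPKM, *Tcf21* with 45.0, *Wt1* with 43.7 and *Sox9* with 37.0. The ranges over the 4 libraries, with both genotypes pooled, overlapped between each of these neighbours. Within a library, *Gata4* was above *Nr5a1* in 4 of 4 libraries and *Wt1* above *Sox9* in 4 of 4. *Tcf21* was above *Wt1* in 3 of 4 and *Nr5a1* above *Tcf21* in 2 of 4, so the order of these middle neighbours is not resolved. *Sox8* lay below *Sox9*, with 24.04 FPKM on average, and its highest library, at 26.8 FPKM, was under the lowest of *Sox9*, at 29.6 FPKM. The low end was held by *Lhx9* with 2.001 FPKM and *Emx2* with 0.299 FPKM, which did not overlap with each other or with the other 6 factors.

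**Figure D1:**
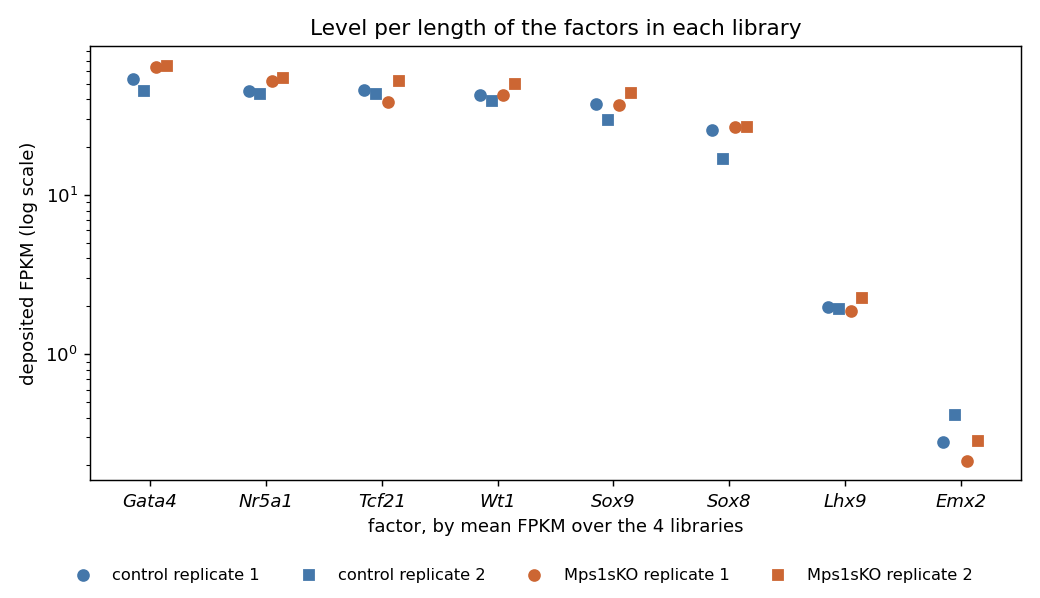
Deposited FPKM of each factor (log axis) in the 4 libraries, with blue points for control, orange points for Mps1sKO, circles for replicate 1 and squares for replicate 2. The first 6 factors lie between 16.9 and 65.1 FPKM, *Lhx9* lies near 2.001 FPKM and *Emx2* near 0.299 FPKM.

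Next, each factor was compared between Mps1sKO and control testes. All levels from here on are CPM with TMM-scaled library sizes, all fold changes are Mps1sKO relative to control, and tests are edgeR's two-sided quasi-likelihood test with Benjamini-Hochberg adjustment over the 20561 tested loci. Of the 8 factors, 7 had a log2 fold change above 0, against 50.1% of all tested loci and 53.3% of the 1321 tested loci with a transcription factor family. None of the 8 passed an adjusted p of 0.05, which 0.0292% of all tested loci did. The count was also 0 of 8 in DESeq2 and in limma-voom. At an unadjusted p below 0.05, 2 factors (*Gata4* and *Nr5a1*) were higher, against 3.92% of all tested loci and 5.22% of those with a transcription factor family, and 0 were lower, against 5.37%. The count of 2 was 0 without control replicate 2, 3 without control replicate 1, 4 without Mps1sKO replicate 1 and 2 without Mps1sKO replicate 2. The median log2 fold change was 0.22 over the 8 factors, 0.00027 over all tested loci and 0.016 over those with a transcription factor family. In whole testes, a larger share of cells of a type and more RNA per cell cannot be told apart.

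*Gata4*, whose product drives *Amh* and inhibin genes and is a common stain for Sertoli nuclei, was at 211 and 178 CPM in control and at 251 and 255 CPM in Mps1sKO testes. Both Mps1sKO libraries lay above both control libraries, as was the case for 20.3% of all tested loci and 21.3% of those with a transcription factor family. The log2 fold change was 0.38 (standard error 0.104, 95% interval 0.14 to 0.62), which is 1.30-fold, with an unadjusted p of 0.00705 and an adjusted p of 0.494 from edgeR. It was 0.26 without control replicate 2 (unadjusted p = 0.105 from edgeR) and 0.50 without control replicate 1. When loci with low counts were kept in the fit, the adjusted p was 0.0243. *Gata4* and *Nr5a1* also passed the study's relaxed cut-offs of a 1.2-fold change and an unadjusted p below 0.05, as did 3.09% of all tested loci in the higher direction. *Nr5a1*, at 1.21-fold, lay close to that limit and fell under it with library size only and without replicate 2 of either genotype (log2 fold changes of 0.25, 0.24 and 0.24).

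*Nr5a1*, which encodes the nuclear receptor at the head of steroidogenic and Sertoli programmes, had 192 and 185 CPM in control and 223 and 232 CPM in Mps1sKO testes. The libraries of each genotype were close together and the genotypes did not overlap. The log2 fold change was 0.27 (standard error 0.0856, 95% interval 0.07 to 0.47), or 1.21-fold, with an unadjusted p of 0.014 and an adjusted p of 0.497 from edgeR. With each library left out in turn it stayed between 0.24 and 0.30, the narrowest such range among the 8 factors, although the unadjusted p was 0.0682 without control replicate 1 and 0.134 without control replicate 2. With the replicate number as a block it was 0.0684.

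*Sox9*, the central factor of Sertoli fate, had 156 and 123 CPM in control and 153 and 182 CPM in Mps1sKO testes. Its groups overlapped, as the lower Mps1sKO library was under the higher control library. This gave a log2 fold change of 0.26 (95% interval −0.05 to 0.58, unadjusted p = 0.0919 and adjusted p = 0.59 from edgeR). Without control replicate 2 it was 0.10, and without control replicate 1 it was 0.45.

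*Sox8*, which backs up *Sox9* after birth, had 81.0 and 53.2 CPM in control and 83.5 and 83.8 CPM in Mps1sKO testes. Both Mps1sKO libraries lay above both control libraries, but control replicate 1 was close to them and only control replicate 2 was apart. The log2 fold change was 0.32 (95% interval −0.09 to 0.73, unadjusted p = 0.11 and adjusted p = 0.605 from edgeR). Control replicate 2 decided this value, since the log2 fold change was 0.05 without it and 0.65 without control replicate 1, where the adjusted p was 0.033. In the last fit, the lone control library is assumed to vary like the Mps1sKO libraries. The 5′ end of *Sox8* shares 329 exon bases with the antisense gene *2810468N07Rik*, which had 337, 277, 269 and 382 counts in control replicates 1 and 2 and Mps1sKO replicates 1 and 2, and the strand setting of the counting is not given in the sources used here.

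*Wt1*, a zinc finger factor needed to keep the Sertoli fate, had 267 and 244 CPM in control and 265 and 312 CPM in Mps1sKO testes. The groups overlapped, with Mps1sKO replicate 2 alone above the others. Mps1sKO against control was 0.18 on the log2 scale (95% interval −0.07 to 0.42, unadjusted p = 0.141 and adjusted p = 0.628 from edgeR). It ranged from 0.06 without Mps1sKO replicate 2 to 0.29 without Mps1sKO replicate 1.

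**Figure D2:**
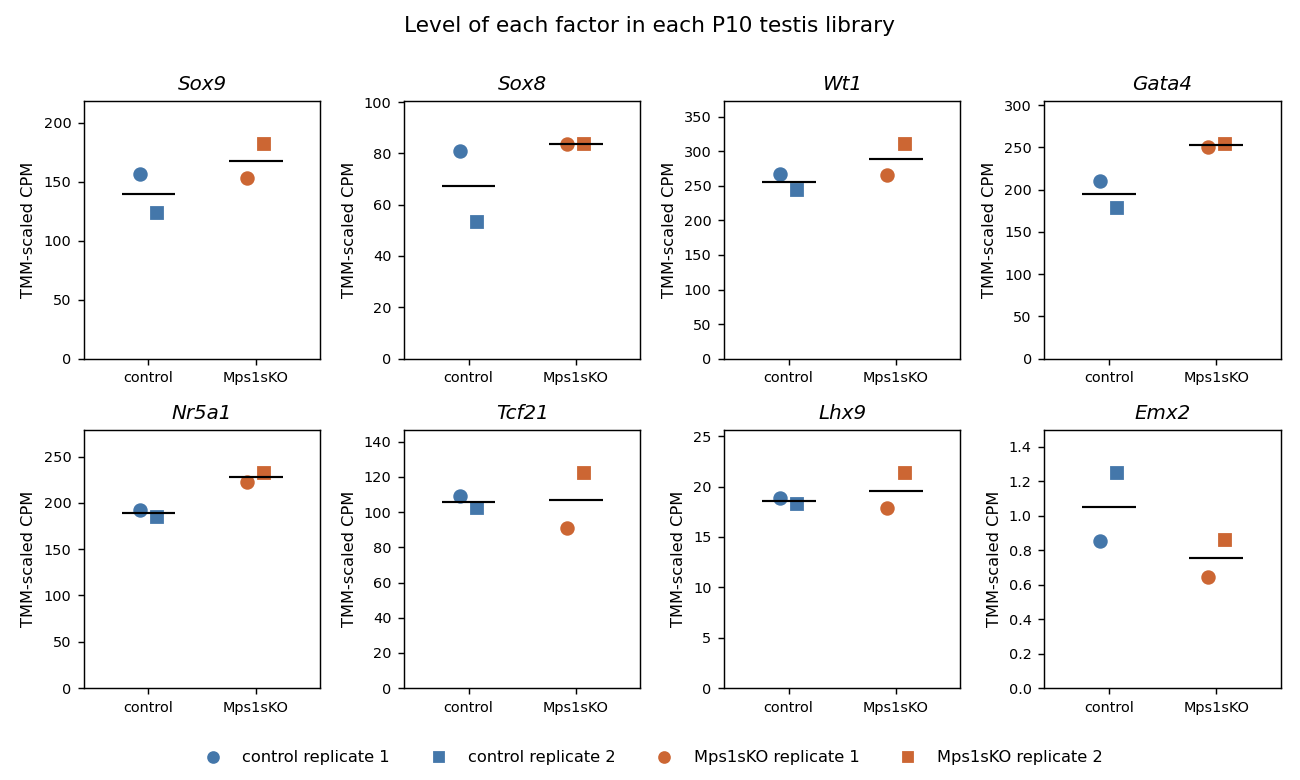
TMM-scaled CPM of the 8 factors in each library, with blue points for control, orange points for Mps1sKO, circles for replicate 1, squares for replicate 2 and a black line for the mean of each genotype. *Gata4*, *Nr5a1* and *Sox8* are the factors whose Mps1sKO libraries both lie above both control libraries, and for *Sox8* control replicate 1 (81.0 CPM) is close to the Mps1sKO libraries (83.5 and 83.8 CPM).

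*Tcf21*, a basic helix-loop-helix factor of gonadal mesenchyme, had 109 and 102 CPM in control and 91.1 and 122 CPM in Mps1sKO testes. The Mps1sKO libraries fell on either side of the control libraries. Between the genotypes the log2 fold change was 0.01 (95% interval −0.31 to 0.33, unadjusted p = 0.938 and adjusted p = 0.99 from edgeR), and the interval reached 1.26-fold in the higher direction. Its sign depended on the library left out, from −0.22 without Mps1sKO replicate 2 to 0.21 without Mps1sKO replicate 1.

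*Lhx9*, a LIM homeodomain factor of the genital ridge, had 18.9 and 18.3 CPM in control and 17.9 and 21.3 CPM in Mps1sKO testes. As for *Tcf21*, Mps1sKO replicate 1 was the lowest library and Mps1sKO replicate 2 the highest. This came to a log2 fold change of 0.08 (95% interval −0.22 to 0.38, unadjusted p = 0.565 and adjusted p = 0.876 from edgeR), and it was −0.06 without Mps1sKO replicate 2 and 0.20 without Mps1sKO replicate 1.

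*Emx2*, a homeodomain factor of the urogenital ridge and its ducts, was near the limit of these libraries with 23 and 36 counts in control and 15 and 23 counts in Mps1sKO testes. These are 0.854 and 1.25 CPM in control and 0.647 and 0.858 CPM in Mps1sKO testes, and the groups overlapped by a small margin. It was the only factor with a log2 fold change below 0, at −0.47 (95% interval −1.31 to 0.36, unadjusted p = 0.223 and adjusted p = 0.696 from edgeR). Without control replicate 2 the value was −0.17, and without Mps1sKO replicate 1 it was −0.30. *Emx2* shares 264 exon bases with the antisense gene *Emx2os*, counted 22 and 9 times in control and 13 and 21 times in Mps1sKO libraries, so reads on that stretch cannot be assigned to a strand from the sources used here.

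**Figure D3:**
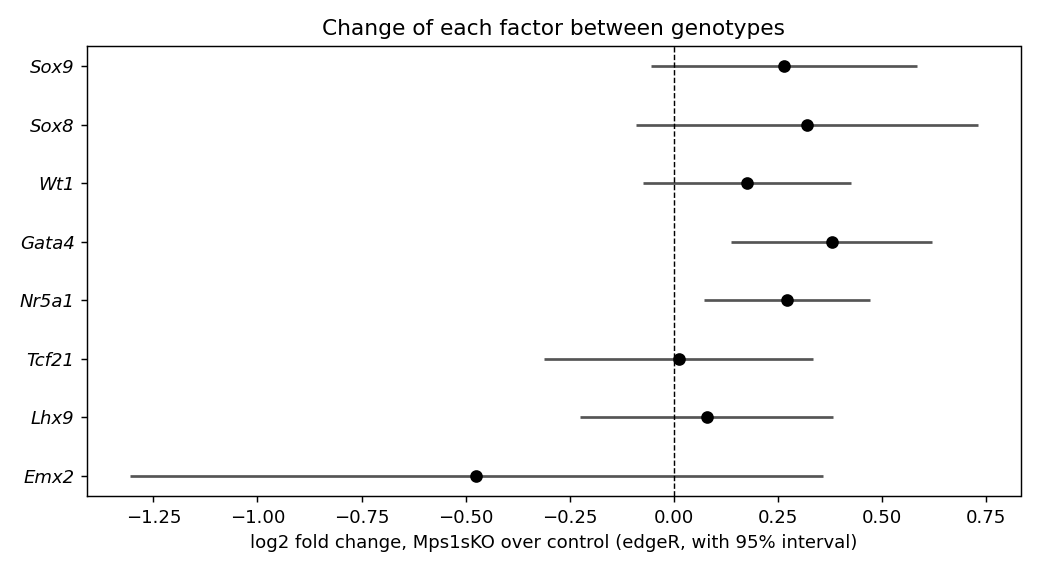
Log2 fold change (Mps1sKO over control) of each factor from edgeR, as a point with its 95% interval as a bar and a dashed line at 0. The intervals of *Gata4* (0.14 to 0.62) and *Nr5a1* (0.07 to 0.47) lie above 0 before adjustment, and those of the other 6 factors include 0.

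The spread within a genotype was not the same for all factors. From control replicate 1 to control replicate 2 the log2 difference was −0.61 for *Sox8*, −0.35 for *Sox9*, −0.24 for *Gata4* and −0.06 for *Nr5a1*. Between Mps1sKO replicates 1 and 2 it was 0.42 for *Tcf21*, 0.26 for *Lhx9*, 0.25 for *Sox9*, 0.23 for *Wt1*, 0.06 for *Nr5a1*, 0.02 for *Gata4* and 0.01 for *Sox8*. For *Emx2*, at low counts, it was 0.55 between the control and 0.41 between the Mps1sKO libraries. *Sox9*, *Wt1*, *Tcf21*, *Lhx9* and *Emx2* thus differed between the Mps1sKO libraries about as much as or more than between the genotypes. *Sox9*, *Sox8*, *Tcf21* and *Emx2* differed by more between the control libraries than between the genotypes, sign aside.

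To set the factors beside the genes that they are known to drive, 10 Sertoli genes downstream of them were taken as a list. All 10 had a log2 fold change above 0, against 50.1% of all tested loci, with a median of 0.34. At an unadjusted p below 0.05, 4 of them were higher, against 3.92% of all tested loci. None passed an adjusted p of 0.05, and the median was 0.18 without control replicate 2. *Amh*, the anti-Müllerian hormone that SOX9, GATA4, NR5A1 and WT1 act on, had the largest value, 0.67, but its libraries were at 228 and 114 CPM in control and 207 and 337 CPM in Mps1sKO testes, so the groups overlapped and the interval was −0.08 to 1.42 (adjusted p = 0.573 from edgeR). *Dhh*, the Sertoli hedgehog signal, had 133 and 107 CPM in control and 146 and 174 CPM in Mps1sKO testes, a log2 fold change of 0.42 (unadjusted p = 0.0145 and adjusted p = 0.497 from edgeR). *Fshr*, the receptor of follicle-stimulating hormone, had a log2 fold change of 0.24, with an interval of −0.005 to 0.49. The smallest values were those of *Cldn11*, a tight junction gene, at 0.08 and of *Ptgds*, a prostaglandin synthase gene, at 0.15.

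A further 12 Sertoli markers were taken as a second list, of which 11 were tested. Some of them, such as *Vnn1*, have also been linked to these factors, so the list is not an independent reference. Of these 11, 8 had a log2 fold change above 0 and 4 were higher at an unadjusted p below 0.05, against 50.1% and 3.92% of all tested loci. Their median was 0.23, which was 0.11 without Mps1sKO replicate 2. *Rhox8* (0.66, from 51 and 77 counts in control and 51 and 133 in Mps1sKO libraries) and *Vnn1* (0.43) had the highest values, and *Trf* (−0.42) and *Tsx* (−0.34) the lowest. *Rhox5*, which was not tested, had 1 count in 1 control library.

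The summed level of the 10 downstream genes, of which *Aard* contributed most, was 4071 and 3531 CPM in control and 4455 and 5037 CPM in Mps1sKO testes. That of the other Sertoli markers, in which *Clu* was the largest, was 5843 and 6334 CPM in control and 7637 and 6782 CPM in Mps1sKO testes. For both lists the Mps1sKO libraries lay above the control libraries, as they did for the sum of the 8 factors, which was 1036 and 905 CPM in control and 1085 and 1209 CPM in Mps1sKO testes. The same held for the sums of the close relatives (142 and 123 CPM in control, 149 and 153 CPM in Mps1sKO testes) and of the endothelial markers (120 and 119 CPM in control, 130 and 125 CPM in Mps1sKO testes), but no longer when the most abundant gene, *Gata6* or *Cdh5*, was left out. The list of 12 germ cell markers lay the other way, with 1590 and 1923 CPM in control and 1414 and 1121 CPM in Mps1sKO testes. Of these, 12 of 12 had a log2 fold change below 0, as did 10268 of the 20561 tested loci. At an unadjusted p below 0.05, 10 of 12 were lower, against 5.37% of all tested loci. The values ran from −0.79 for *Stra8* and −0.70 for *Rhox13* to −0.40 for *Dazl* and −0.24 for *Kit*, and for 11 of them the groups did not overlap, against 21.1% of all tested loci in the lower direction. The part of the smaller germ cell signal in the levels of the factors was not tested.

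**Figure D4:**
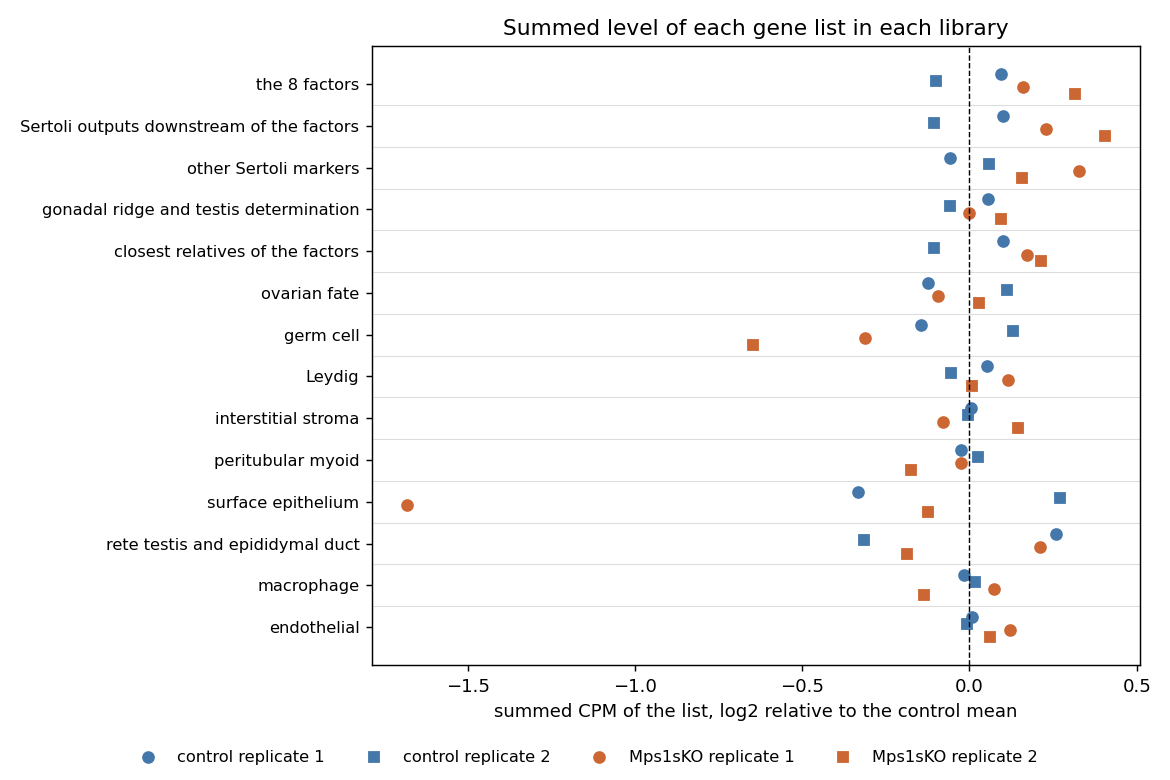
Summed CPM of each gene list in each library, as log2 relative to the mean of the control libraries, with blue points for control, orange points for Mps1sKO, circles for replicate 1 and squares for replicate 2. The factors, both Sertoli lists, the close relatives and the endothelial list lie higher in both Mps1sKO libraries, the germ cell list lies lower in both, and the surface epithelium list is lowest in Mps1sKO replicate 1.

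To compare the factors with other Sertoli RNA instead of with all RNA of the testis, each factor was divided by the summed level of each Sertoli list in the same library. As a share of the other Sertoli markers, *Gata4* was at 3.61% and 2.81% in control and 3.29% and 3.76% in Mps1sKO testes, and the groups overlapped. *Nr5a1* was at 3.29% and 2.92% in control and 2.92% and 3.42% in Mps1sKO testes, which also overlapped. The log2 differences of the group means on this scale were 0.13 for *Gata4*, 0.03 for *Nr5a1*, 0.02 for *Sox9*, 0.07 for *Sox8* and −0.06 for *Wt1*, and none of these 5 factors separated the genotypes. The overlap of *Gata4* depends on *Clu*, at 2900 and 3586 CPM in control and 4399 and 3319 CPM in Mps1sKO testes. Without *Clu* the list summed to 2943 and 2748 CPM in control and 3238 and 3462 CPM in Mps1sKO testes. How many of all loci separate against that sum was not computed. As a share of the downstream genes, the log2 differences were 0.06 for *Gata4*, −0.05 for *Nr5a1*, −0.05 for *Sox9* and 0.02 for *Sox8*, again with overlap.

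On that second scale, *Wt1*, *Tcf21*, *Lhx9* and *Emx2* were lower in both Mps1sKO libraries than in both control libraries. That is 4 of 8 factors, against 61.9% of all tested loci on the same scale, whose reference was itself higher in Mps1sKO testes, and on CPM 0 of 8 factors separated in the lower direction. *Wt1* was at 6.55% and 6.91% of the downstream genes in control and at 5.96% and 6.18% in Mps1sKO testes. *Tcf21* was at 2.68% and 2.90% in control and at 2.04% and 2.43% in Mps1sKO testes. For the first 3 of these 4 factors the groups overlapped when the other Sertoli markers, with *Clu* among them, were the reference. The overlap of *Tcf21* and *Lhx9* depends on *Clu*, since against that list without *Clu* both were lower in both Mps1sKO libraries. *Wt1* still overlapped without *Clu*, so its separation depends on the list. How many of all loci separate without *Clu* was not computed. With *Clu* kept in that list, 1 of 8 factors (*Emx2*) was lower, against 51.7% of all tested loci. With 2 libraries against 2, an exact permutation test of such a ratio cannot give a p below 0.333, and none was run.

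Since several of the factors are also made outside Sertoli cells, markers of the other cell types were set beside them. For Leydig cells, which also make GATA4 and NR5A1, the summed level of 8 markers was 834 and 774 CPM in control and 871 and 808 CPM in Mps1sKO testes, and the groups overlapped. Their log2 fold changes ran from −0.66 for *Star* and −0.17 for *Cyp17a1* to 0.52 for *Hsd17b3* and 0.55 for *Hsd3b6*. At an unadjusted p below 0.05, 0 of the 8 were higher and 0 lower, against 3.92% and 5.37% of all tested loci, so 0 of 8 is near the share of all loci. Their median was 0.20, beside the median of 0.22 of the factors. Of the 8, 6 were above 0, against 50.1% of all tested loci. For 3 of 8 both Mps1sKO libraries lay above both control libraries, against 20.3% of all tested loci. The part of Leydig cells in the values of *Gata4* and *Nr5a1* was not tested. For interstitial stroma, where *Tcf21* and *Lhx9* are known, the sum of 8 genes was 1497 and 1489 CPM in control and 1414 and 1649 CPM in Mps1sKO testes. Its lowest and highest libraries were Mps1sKO replicates 1 and 2, as they were for *Tcf21* and *Lhx9*, but this order rested on *Col1a1*, at 554 and 568 CPM in control and 417 and 608 CPM in Mps1sKO testes. Without *Col1a1* the sum was 942 and 921 CPM in control and 997 and 1041 CPM in Mps1sKO testes, and both Mps1sKO libraries lay above both control libraries. *Dlk1*, a gene of that list, is listed at 0 counts in all 4 libraries. The 6 peritubular myoid genes summed to 962 and 995 CPM in control and 962 and 867 CPM in Mps1sKO testes, and the median over these genes was −0.10 on the log2 scale.

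For the epithelium on the surface of the gonad, where *Emx2*, *Lhx9* and *Wt1* are also made, 6 markers summed to 22.0 and 33.4 CPM in control and 8.63 and 25.4 CPM in Mps1sKO testes. All 6 had a log2 fold change below 0, as did 10268 of the 20561 tested loci. Their median was −0.76, which was −1.72 without Mps1sKO replicate 2, −0.13 without Mps1sKO replicate 1 and −0.37 without control replicate 2. Control replicate 2 was highest and Mps1sKO replicate 1 lowest both for this sum and for *Emx2*, whose other libraries had 23 counts each, and the part of this epithelium in the value of *Emx2* was not tested. *Krt19* was the only 1 of the 6 markers with non-overlapping groups, against 21.1% of all tested loci in the lower direction. The 5 markers of the rete testis and the epididymal duct summed to 12.6 and 8.46 CPM in control and 12.2 and 9.25 CPM in Mps1sKO testes. Their median was −0.33 on the log2 scale, and −1.28 without Mps1sKO replicate 1. Macrophage markers (median −0.13 over 5 genes, and 0.08 without Mps1sKO replicate 2) and endothelial markers (median 0.05 over 4 genes) had no member with an unadjusted p below 0.05. Of all tested loci, 3.92% were higher and 5.37% lower at that limit.

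Finally, the other genes of gonadal fate were described. Of 17 genes of the genital ridge and of testis determination, 16 were tested and *Sry* is listed at 0 counts in all 4 libraries. Their median log2 fold change was 0.07, which was 0.01 without Mps1sKO replicate 2. At an unadjusted p below 0.05, 0 were higher and 2 lower, against 3.92% and 5.37% of all tested loci. Those 2 were *Six4*, a homeobox gene of the ridge, which had 7.61 and 7.42 CPM in control and 6.09 and 4.37 CPM in Mps1sKO testes (log2 fold change −0.53, unadjusted p = 0.0297 and adjusted p = 0.515 from edgeR), and *Cbx2*, a Polycomb gene required for testis formation (−0.29, unadjusted p = 0.0296 and adjusted p = 0.515 from edgeR). The highest values were 0.28 for *Cited2*, a co-activator that acts with WT1 in the ridge, and 0.21 for *Insr*, the insulin receptor gene. *Dmrt1*, which guards the male fate after birth and is made in Sertoli and germ cells, had 278 and 257 CPM in control and 247 and 266 CPM in Mps1sKO testes. Its log2 fold change was −0.06 (95% interval −0.27 to 0.15).

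Among 10 close relatives of the factors, 8 were tested and 1 was higher at an unadjusted p below 0.05, against 3.92% of all tested loci. This was *Gata6*, which shares roles with *Gata4* in Sertoli and Leydig cells, with 61.3 and 45.4 CPM in control and 64.1 and 75.8 CPM in Mps1sKO testes. Its log2 fold change was 0.39 (95% interval 0.03 to 0.75, unadjusted p = 0.0362 and adjusted p = 0.525 from edgeR). *Gata1*, a marker of maturing Sertoli cells, was at 0.08 (95% interval −0.17 to 0.33) and *Sox10*, the third gene of the *Sox8* and *Sox9* group, at 0.20 (95% interval −0.19 to 0.59). Of the relatives, *Msc* (−0.29) and *Gata2* (−0.18) were the lowest, and *Gata5* and *Emx1* had at most 10 counts in any library and were not tested.

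Of 10 genes of ovarian fate, which SOX9 and its partners hold down, 9 were tested and their median log2 fold change was −0.17, which was 0.08 without control replicate 2 and −0.02 without Mps1sKO replicate 1. *Foxl2*, the factor that keeps granulosa cells, had 11 and 13 counts in control and 7 and 8 counts in Mps1sKO libraries, with a log2 fold change of −0.51 (95% interval −1.60 to 0.57). *Bmp2* had a log2 fold change of −0.72 and *Wnt4* of 0.30, both with overlapping groups. *Rspo1* was lower, at −0.40 (unadjusted p = 0.0419 and adjusted p = 0.527 from edgeR). *Esr2*, the gene of oestrogen receptor beta, was higher, with 4.90 and 3.68 CPM in control and 8.16 and 7.46 CPM in Mps1sKO testes. Its log2 fold change was 0.87 (95% interval 0.41 to 1.32, unadjusted p = 0.00241 and adjusted p = 0.494 from edgeR). *Irx5* had 8 and 8 counts in control and 14 and 9 counts in Mps1sKO libraries and was not tested.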

How the data were processed

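RNA of 4 whole P10 testis libraries (2 control, 2 Mps1sKO) had been sequenced by the authors. Per the submitters' processing notes, HISAT2 2.0.5, featureCounts and DESeq2 1.16.1 were used on mm10. The deposited counts are raw reads per gene, and the deposited FPKM were computed by the authors from them with gene length and library size. The strand setting is not given in the sources used here.

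Counts were fitted in edgeR 4.0.16 (R 4.3.3) by genotype, with TMM scaling, filterByExpr and the quasi-likelihood test over 20561 loci, and the script was tested on simulated data. FPKM served only to order levels. DESeq2 1.42.0, limma-voom (limma 3.58.1), other scalings and filters, a replicate block and each library left out were the alternatives. Intervals are 95% intervals.

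The 8 factors and 13 gene lists were chosen with earlier results of these data known. Named were all 8 factors, *Ttk*, overlapping genes, the 2 highest and 2 lowest genes of the lists that are described gene by gene, and *Amh*, *Fshr*, *Gata1*, *Dmrt1*, *Ddx4* and *Foxl2*. *Aard*, *Clu*, *Col1a1*, *Cdh5*, *Krt19*, *Rspo1* and the genes not tested were picked after their values were seen. List sums without the most abundant gene were added after seeing the data. Same-numbered libraries deviated from their group means in opposite directions (correlation −0.44 over 11110 genes), so replicate numbers were not taken as pairs. With 2 libraries per genotype, differently numbered libraries of the 2 genotypes must then deviate together to the same extent. The main fit takes no account of this shared deviation, and its cause was not tested.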

Additional observations from a re-analysis of the deposited data

How the results depend on the processing

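With a library left out, the lone library of its genotype was assumed to vary like the other genotype. The log2 fold changes of *Sox9*, *Sox8*, *Wt1*, *Gata4*, *Nr5a1* and *Emx2* kept their sign under the alternatives run, apart from the crossed pairing, for which only counts of calls were taken. That of *Tcf21* turned to −0.0104 with library size only, −0.0035 with the replicate block and −0.0022 with limma-voom. With libraries left out, it ran from −0.22 to 0.21 for *Tcf21*, from −0.0562 to 0.20 for *Lhx9* and from 0.0465 to 0.65 for *Sox8*. *Gata4* passed adjustment without the filter on low counts (0.38, adjusted p = 0.0243) and had adjusted p-values from 0.0243 to 0.915 over the alternatives that kept all libraries. The cause was not tested.

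The number of factors with an adjusted p below 0.05 was 0, 1 without the filter and 0 to 1 with libraries left out. The number higher at an unadjusted p below 0.05 was 2, 4 without the filter, 1 with the replicate block (*Gata4*) and 0 to 4 with libraries left out. Over all loci, 6 passed adjustment, against 390 without the filter, 3 with at least 10 counts in every library, 2 with the replicate block, 37 in DESeq2, 3 in limma-voom and 17 to 199 with libraries left out. At an unadjusted p below 0.05, 807 loci were higher and 1105 lower, against 1310 and 1693 without the filter, 353 and 686 with the block, 533 and 596 in DESeq2, and 317 and 486 without control replicate 2. Without Mps1sKO replicate 1, 1248 were higher. With library size only, 644 were higher and 1285 lower. A crossed pairing of the replicate numbers, added after seeing the data, called 2 factors and 550 loci after adjustment and 5 factors, 1877 higher and 1916 lower loci at an unadjusted p below 0.05. *Ttk* lost its call with at least 10 counts in every library (adjusted p = 0.0573), the replicate block (0.224) and limma-voom (0.0745). The ovarian median was −0.02 with at least 10 counts in every library.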

Other observations

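For each factor, the genes with the most similar profile over the 4 libraries were listed among about 11037 tested genes with a mean of at least 10 CPM, by Euclidean distance of log2 CPM centred on each gene's mean. *Dhrs11* was nearest to *Sox9* (distance 0.0135), *Greb1* to *Sox8* (0.0582), *Slc35a1* to *Wt1* (0.00993) and *Epdr1* to *Gata4* (0.0194). *Gm44250* was nearest to *Nr5a1* (0.0112), *Siah1a* to *Tcf21* (0.0157), *Txn1* to *Lhx9* (0.0181) and *Gm15920* to *Emx2* (0.0789). With 4 libraries such likeness is common, since 405 genes for *Emx2* and up to 1434 for *Sox9* had a Pearson correlation over 0.9 with the factor.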
